A study of Mus musculus with 8 samples.

Results

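The genes described here encode the histones, the proteins that DNA is wound around. They were taken by name, as every gene ID that begins with Hist1h to Hist4h, H2af, H3f3 or H1f, and kept where the mean over the 4 RNA libraries was at least 1 TPM (transcripts per 1000000, a level scaled for gene length and library). Of 85 IDs with such names, 77 passed, out of 24538 gene IDs in the files and 13228 at that level. They comprised 66 Hist genes, which lie in clusters named Hist1 to Hist4, and 11 variant genes (H1f0, H1fx, H2afj, H2afv, H2afx, H2afy, H2afy2, H2afy3, H2afz, H3f3a and H3f3b). The 8 IDs left out were Hist1h2aa, Hist1h2al, Hist1h2ba, H1fnt, H1foo, H2afb1, H2afb2 and H2afb3, none of them above 1.05 TPM in any library. Just inside the rule lay H2afy3, with a mean of 1.34 TPM, and just outside it Hist1h2al, with 0.718 TPM.

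Bone marrow progenitors of the LSK type (negative for lineage markers, positive for Sca-1 and c-Kit) had been cultured on OP9-DL1, a mouse stromal line that displays the Notch ligand Delta-like 1. The control cells were CreER+ and wild type, and the knockout cells were CreER+ with floxed Tcf7 and floxed Lef1. Every culture, control or knockout, carried the tamoxifen-inducible Cre and received 4-OH tamoxifen from day 3 to day 5. On day 7 the c-Kit-positive DN1 cells (lineage, CD4 and CD8 negative, CD44-high, CD25 negative) were sorted for RNA-seq and for ATAC-seq, with 2 control and 2 knockout libraries in each assay. The sources used here do not give the promoter that drives CreER, nor say whether libraries of a group came from different mice or cultures. P-values therefore measure the spread between these libraries, which may be technical. In bulk RNA such as this, fewer cells of a type and less RNA per cell cannot be told apart.

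In the 2 control libraries Tcf7 was listed at 518 and 510 TPM, against 13.2 and 12.4 TPM with the deletion, while Lef1 was between 1.10 and 1.66 TPM in all 4 and so gives no check of its deletion. Of the genes of the sort, Kit was at 251 and 238 TPM in controls against 157 TPM in both knockout libraries. Ptprc, of the same list, was at 207 and 232 TPM in controls against 129 and 142 TPM in knockouts. Cd44 was at 94.0 to 109 TPM, and Cd4 did not exceed 0.318 TPM. Il2ra, which encodes CD25, was at 136 and 133 TPM in controls against 0.658 and 0.393 TPM in knockouts, although the gate was CD25 negative. From 13050 to 13314 genes reached 1 TPM in a library. The ratio of coverage to FPKM, which follows depth, was 2.412 and 2.122 in controls and 2.638 and 2.63 in knockouts. Both knockout libraries were thus somewhat deeper than both control libraries. Median coverage over the 77 histone genes was 247 and 206 per base in controls and 363 and 392 per base in knockouts.

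Cells that replicate their DNA must package the new copy, and the Hist genes supply the bulk of that demand: their expression is tied to S phase. Most of their mRNAs are not spliced and end in a stem-loop that is bound by SLBP, in place of a poly(A) tail. The U7 snRNP and a set of cleavage factors form that end. Variant histones are made from single genes, mostly with introns and poly(A) tails, throughout the cell cycle, and chaperones such as HIRA, DAXX and the SRCAP complex place them in chromatin outside replication. Linker histone H1 binds between nucleosomes, and H2A, H2B, H3 and H4 form the nucleosome core.

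Promoters of 69 of the 77 genes, 60 Hist and 9 variant, were matched in RefSeq (GRCm38.p6, the same coordinates as mm10), each within 50 bases of the start given in the RNA files. The 250 bases before the start are printed for the 2 largest rises among the Hist genes that were called (Hist1h4b and Hist1h3g), for the H2A gene Hist2h2ac, for the linker gene Hist1h1b, for Hist3h2ba, which went the other way, and for H2afz and H3f3b, variants called in opposite directions. Hist1h4b lies at chr13:23756687-23756936 and Hist1h3g at chr13:23535168-23535417, both on the plus strand. Hist2h2ac lies at chr3:96220881-96221130 and Hist1h1b at chr13:21780626-21780875, both on the minus strand. Hist3h2ba lies at chr11:58948661-58948910 and H2afz at chr3:137864237-137864486 on the plus strand, and H3f3b at chr11:116024505-116024754 on the minus strand. Each sequence is written 5′ to 3′ along its gene, and capitals mark matches, on either strand, to 4 motifs. These are TATAAA, the element that TBP binds in core promoters, then CCAAT, the site of the factor NF-Y, then the octamer ATTTGCAT, which OCT1 binds, and lastly AAACACA, known as the H1 box.
Hist1h4b: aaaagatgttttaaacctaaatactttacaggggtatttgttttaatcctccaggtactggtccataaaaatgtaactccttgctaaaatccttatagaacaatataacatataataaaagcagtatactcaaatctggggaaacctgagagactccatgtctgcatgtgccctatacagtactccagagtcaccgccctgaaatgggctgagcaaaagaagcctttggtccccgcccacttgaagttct
Hist1h3g: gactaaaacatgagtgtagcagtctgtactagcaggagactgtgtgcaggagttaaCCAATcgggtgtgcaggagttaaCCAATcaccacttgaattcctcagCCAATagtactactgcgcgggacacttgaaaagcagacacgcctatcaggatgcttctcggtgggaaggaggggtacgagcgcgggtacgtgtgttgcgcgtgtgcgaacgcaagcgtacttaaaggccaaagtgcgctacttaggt
Hist2h2ac: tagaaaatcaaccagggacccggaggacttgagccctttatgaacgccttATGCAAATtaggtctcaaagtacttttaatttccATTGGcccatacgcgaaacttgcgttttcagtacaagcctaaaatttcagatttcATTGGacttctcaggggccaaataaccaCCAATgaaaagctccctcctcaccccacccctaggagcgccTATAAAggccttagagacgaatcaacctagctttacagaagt
Hist1h1b: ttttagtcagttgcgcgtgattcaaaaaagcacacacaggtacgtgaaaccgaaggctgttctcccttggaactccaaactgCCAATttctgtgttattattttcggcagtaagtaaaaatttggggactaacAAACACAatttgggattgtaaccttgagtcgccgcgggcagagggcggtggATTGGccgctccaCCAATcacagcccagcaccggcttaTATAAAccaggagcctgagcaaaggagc
Hist3h2ba: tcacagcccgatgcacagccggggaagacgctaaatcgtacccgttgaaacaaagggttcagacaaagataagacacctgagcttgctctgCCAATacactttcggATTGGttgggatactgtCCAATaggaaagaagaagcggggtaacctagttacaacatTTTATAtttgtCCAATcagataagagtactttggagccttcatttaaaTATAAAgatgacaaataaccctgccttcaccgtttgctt
H2afz: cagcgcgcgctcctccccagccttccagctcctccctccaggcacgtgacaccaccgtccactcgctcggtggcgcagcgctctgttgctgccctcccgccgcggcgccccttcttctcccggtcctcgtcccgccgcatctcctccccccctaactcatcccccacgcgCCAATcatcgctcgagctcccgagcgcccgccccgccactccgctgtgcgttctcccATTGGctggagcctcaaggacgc
H3f3b: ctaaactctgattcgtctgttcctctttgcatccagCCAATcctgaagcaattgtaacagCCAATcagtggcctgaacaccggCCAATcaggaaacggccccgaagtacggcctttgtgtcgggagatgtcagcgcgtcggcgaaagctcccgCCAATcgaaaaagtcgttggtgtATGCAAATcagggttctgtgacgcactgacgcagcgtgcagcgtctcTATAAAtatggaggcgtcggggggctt

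The sequences differ by histone type. TATAAA was found in 33 of 60 Hist promoters (55.0%) against 13.6% of all 32851 RefSeq promoters of the same 300 bases (250 before and 50 after the start), and in 1 of 9 variant promoters, that of H3f3b. CCAAT was found in 51 of 60 (85.0%) against 37.4% of all: every matched H1, H2A, H2B and H3 promoter held it, but only 3 of 12 H4 promoters. The octamer ATTTGCAT was in 11 of 60 (18.3%) against 1.74% of all, in 6 H2A and 5 H2B promoters and in no H1, H3 or H4 promoter. AAACACA was in 5 of 6 H1 promoters against 7.18% of all. The motifs CTTTGAT and CTTTGAA, cores that TCF/LEF proteins recognise, were in 4 and 1 of the 60 Hist promoters against 3.73% and 5.14% of all, and in none of the 9 variant promoters. None of these 6 motifs contains another, and a match, or its absence from this window, is a description of letters. The window of Hist1h4b, the gene with the largest called rise, held none of the 6.

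Histone RNA was abundant in every library. The summed level of the 66 Hist genes came to 26683 and 27725 TPM in controls and to 33417 and 33904 TPM in knockouts. That is 2.67% and 2.77% of the control TPM and 3.34% and 3.39% of the knockout TPM, and both knockout libraries lay above both control libraries. The 11 variant genes summed to 3004 and 3211 TPM in the controls and 3104 and 3193 TPM in the knockouts, which overlap. A ratio of the sums within a library does not depend on how the library was scaled: Hist RNA was 8.88 and 8.63 times variant RNA in the controls and 10.8 and 10.6 times in the knockouts. With 2 libraries against 2 the smallest two-sided exact permutation p is 0.333, so sums and shares are given without a test.

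Single genes were tested with limma on log2(TPM + 1) over all 13228 genes, and called where the adjusted p was under 0.05. Of the 66 Hist genes, 35 rose in the knockout, 2 fell and 29 did not pass the test, with a median log2 change of 0.30. Among all genes tested 25.2% were called higher and 14.7% lower, with a median change of 0.09. Of the 11 variant genes 4 rose, 3 fell and 4 did not pass, and the median was 0.37. Values on this scale understate the change of genes near 1 TPM. The Hist count depends on single libraries, as does that of all genes: each fit that left out a library called fewer of both. Without control replicate 1 or 2 the Hist median was 0.27 and 0.32, and without knockout replicate 1 or 2 it was 0.31 and 0.25. In the same order the median of all genes was 0.10, 0.09, 0.08 and 0.10.

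**Figure D1:**
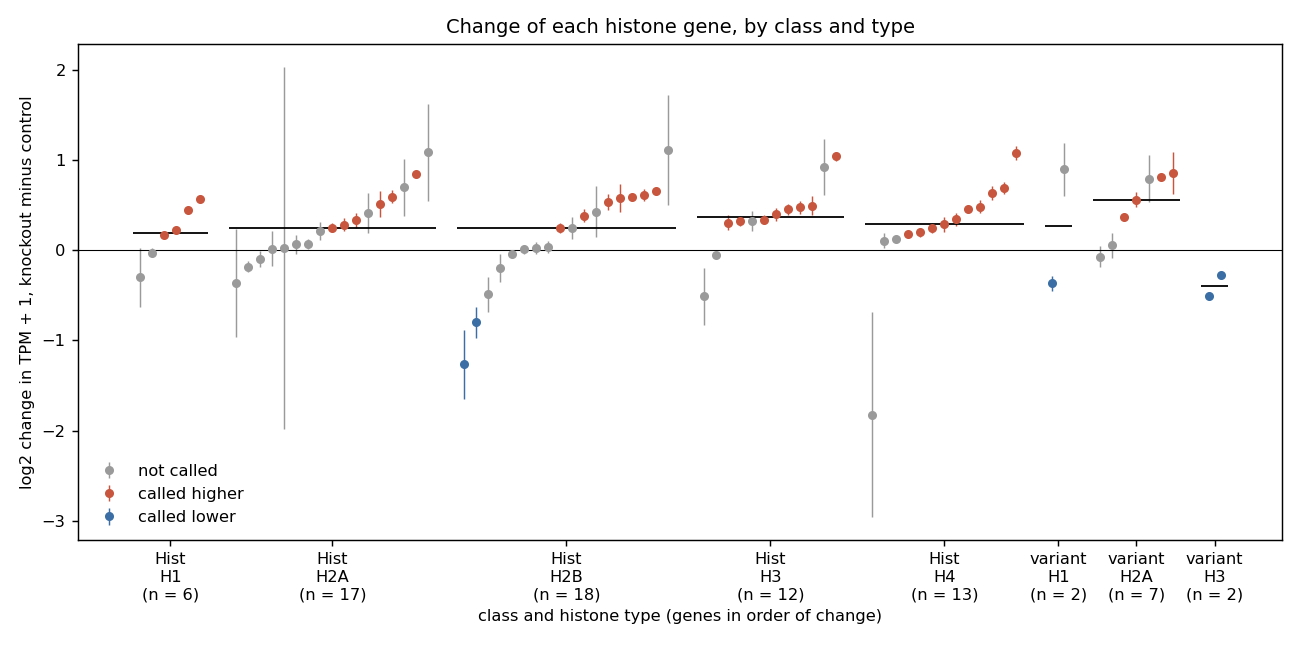
Log2 change in TPM + 1 (knockout minus control, with limma's standard error) of each of the 77 histone genes, grouped by class and type; colour gives the call and black lines the group medians. The 35 Hist genes called higher lie between 0.17 and 1.08, and both variant H3 genes lie below 0.

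The scale of TPM bears on that count. A single RNA, Rpph1 (the RNA part of RNase P, which has no poly(A) tail), held 19.3% and 19.2% of the control TPM and 15.2% and 15.8% of the knockout TPM, which leaves more of the total to other genes in the knockout libraries. Recomputed without Rpph1 and the 9 other listed RNAs that are counted here as tail-less, 24 Hist genes were called higher and 4 lower. All genes gave 20.5% and 17.6%. Quantile normalization gave 23 and 4 (all genes 19.7% and 17.4%). With median-ratio scaling the counts were 21 and 5 (all genes 18.2% and 19.1%), the median of all genes moved from 0.09 to -0.01 and the Hist median from 0.30 to 0.19. Called higher under all 4 scalings were 17 Hist genes, and Hist3h2ba was called lower under all 4. The share of all genes called under all 4 was not computed, so that count has no background beside it. The 7 variant calls were the same under all 4.

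**Figure D2:**
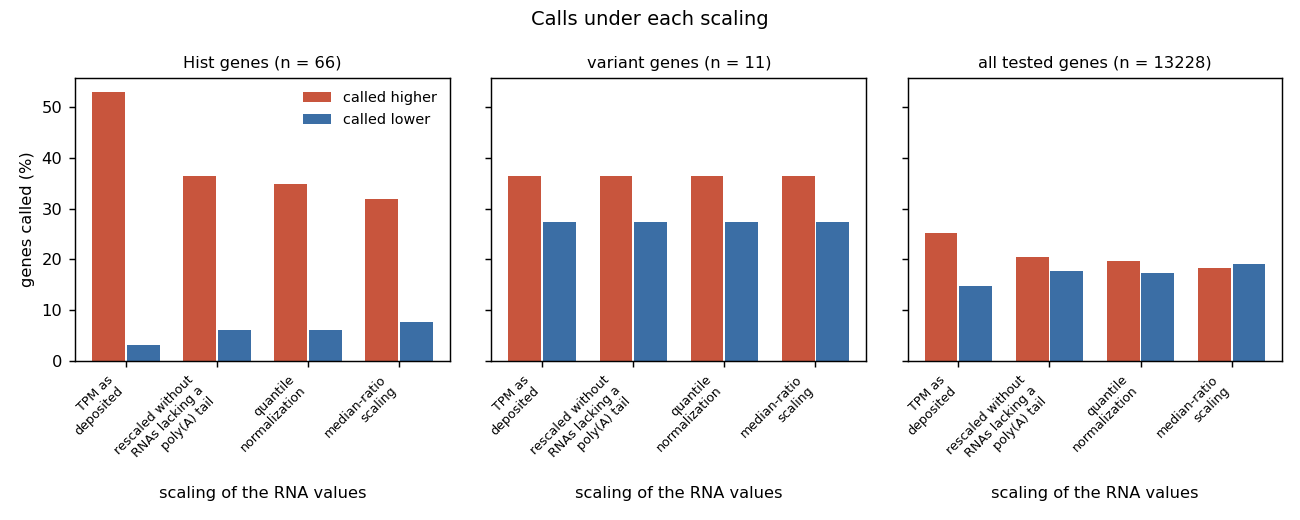
Percent of genes called higher or lower in the knockout under the deposited TPM and 3 other scalings, for Hist genes, variant genes and all tested genes. The Hist bars shrink from 35 of 66 to between 21 and 24 of 66, while the variant bars stay at 4 and 3 of 11.

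Linker histones came mainly from Hist1h1c, Hist1h1e and Hist1h1d, and the shift among them was uneven. Hist1h1c (histone H1.2, chr13:23738807-23739531) was at 2855 and 3181 TPM in the controls and 2962 and 2957 TPM in the knockouts, and Hist1h1e (H1.4) at 1797, 1844, 2018 and 2066 TPM in the same order. The control libraries of Hist1h1c enclose the knockout libraries, and its change of -0.03 was not called. For Hist1h1e both knockout libraries were higher, by 0.17 ± 0.030 (SE, adjusted p = 0.00964), but the call was lost without either control library, with median-ratio scaling and with the rescaling without tail-less RNAs. Hist1h1b (H1.5) went from 728 and 769 TPM to 1092 and 1130 TPM, a change of 0.57 ± 0.040 (adjusted p = 6.68e-04), and Hist1h1d (H1.3) rose by 0.45. Hist1h1a rose by 0.22, a call lost with median-ratio scaling (adjusted p = 0.0848) and without control replicate 1 (0.0562), and Hist1h1t, the testis form, was between 1.49 and 3.37 TPM. As a share of all H1 RNA, Hist1h1c made up 37.8% and 39.3% in the controls and 33.4% and 32.7% in the knockouts, and Hist1h1b 9.65% and 9.49% against 12.3% and 12.5%.

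Of 17 Hist genes for H2A, 6 rose (35.3%) and none fell, with a median of 0.25 over the 17. Among all genes 25.2% were called higher and 14.7% lower. Hist2h2ac (chr3:96220413-96220880), the most abundant, was at 1058 and 1086 TPM in the controls and at 1860 and 1983 TPM in the knockouts. No library of a group reached the other group's range, and the change was 0.84 ± 0.040 (adjusted p = 3.07e-04). The next in level, Hist1h2af, was at 1052, 1141, 1112 and 1196 TPM, with overlapping groups and a change of 0.07 that was not called. Hist2h2ab, beside Hist2h2ac in the Hist2 cluster, rose by 0.60. Without tail-less RNAs in the total, 3 of the 17 were called higher and 1 lower (all genes 20.5% and 17.6%). Quantile normalization gave the same counts (all genes 19.7% and 17.4%). Median-ratio scaling gave 2 higher and 1 lower (all genes 18.2% and 19.1%).

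Among the 18 Hist genes for H2B, 7 rose (38.9%) and 2 fell (11.1%), where 25.2% of all genes were called higher and 14.7% lower. With median-ratio scaling 5 rose and 3 fell (all genes 18.2% and 19.1%). Quantile normalization gave 5 and 2 (all genes 19.7% and 17.4%), as did rescaling without tail-less RNAs (20.5% and 17.6%). Hist2h2bb (chr3:96269700-96270192), far above the others in level, went from 2024 and 2083 TPM to 3030 and 3136 TPM, a change of 0.59 ± 0.032 (adjusted p = 4.05e-04). Hist1h2bj (chr13:22043230-22043658) went from 399 and 414 TPM to 656 and 623 TPM, or 0.65. In both genes the groups lie apart by far more than the libraries of a group differ. Hist3h2ba (chr11:58948911-58949372) moved the other way, from 31.8 and 24.5 TPM to 13.9 and 17.6 TPM. Its change of -0.80 ± 0.17 (adjusted p = 0.0164) was not called without control replicate 1 (adjusted p = 0.0876) or without knockout replicate 1 (adjusted p = 0.073). The other gene called lower, Hist1h2br, was at 2.85 and 4.14 TPM in the controls and 0.336 and 1.57 TPM in the knockouts. It shares its coordinates with Hist1h2bq, so reads may have been split between them, and its call (adjusted p = 0.048) was lost in 6 of the alternatives, among them the fits without either control library or without knockout replicate 1. The 2 IDs summed were at 27.6, 31.2, 25.8 and 50.01 TPM, with no call.

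Of 12 Hist genes for H3, 8 rose (median 0.37), and of 13 for H4, 10 rose (median 0.29), with no falls in either. Among all genes 25.2% were called higher and 14.7% lower. The counts moved with scaling: the H3 rises numbered 7 with median-ratio scaling, 4 with quantile normalization and 7 without tail-less RNAs, each with 1 H3 gene lower. The H4 rises numbered 5, 7 and 6 in the same order. All genes gave 18.2% higher and 19.1% lower with median-ratio scaling and 19.7% and 17.4% with quantile normalization. Without tail-less RNAs they gave 20.5% and 17.6%. Hist1h3g (chr13:23535418-23535909) went from 127 and 121 TPM to 251 and 263 TPM, a change of 1.04 ± 0.049 (adjusted p = 2.99e-04). Hist1h3e, the most abundant H3 gene, was at 896, 910, 896 and 847 TPM and its change of -0.05 was not called. That gene was called lower under each of the other scalings, at -0.16 with median-ratio scaling (adjusted p = 0.021), -0.14 with quantile normalization (0.0489) and -0.12 without tail-less RNAs (0.0485). Hist1h3b, second in level, rose by 0.45, from 375 and 416 TPM to 528 and 554 TPM.

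Hist1h4b (chr13:23756937-23757386) showed the largest called rise of the 66: 110 and 97.6 TPM in the controls, 228 and 212 TPM in the knockouts, a change of 1.08 ± 0.073 (adjusted p = 6.40e-04). Hist2h4 rose by 0.69, from 213 and 241 TPM to 378 and 354 TPM. The most abundant of all Hist genes, Hist1h4d, was at 2957 and 3043 TPM against 3325 and 3481 TPM. Its groups do not overlap, but the change was only 0.18 ± 0.034 (adjusted p = 0.0112). That call was lost without either control library, with median-ratio scaling and with the rescaling without tail-less RNAs. Hist1h4c, second in level, was at 560, 579, 604 and 642 TPM, with a change of 0.13 that did not pass (adjusted p = 0.0617). Among the H4 genes with a mean above 100 TPM, which encode the same protein, the change thus ran from 0.13 to 1.08.

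**Figure D3:**
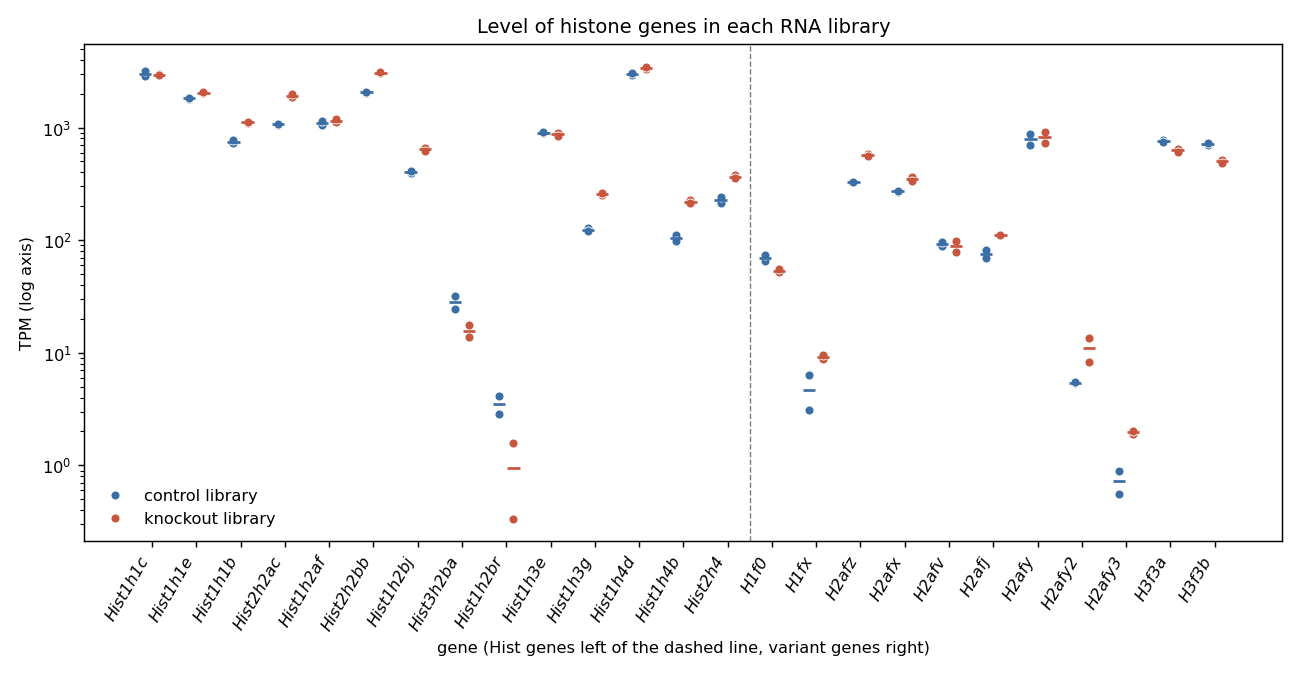
TPM (log axis) of 25 histone genes in each of the 4 RNA libraries; points are libraries, bars the mean of each group. Hist2h2ac, Hist2h2bb, Hist1h3g and Hist1h4b lie wholly higher in the knockout libraries, H3f3a and H3f3b wholly lower, and H2afy overlaps.

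Both variant H3 genes fell. H3f3a and H3f3b both encode H3.3, the replication-independent H3. H3f3b (chr11:116021961-116024504) was at 699 and 725 TPM in the controls and 512 and 488 TPM in the knockouts, and fell by 0.51 ± 0.040 on the log2 scale (adjusted p = 8.75e-04). H3f3a (chr1:180802560-180813605) was at 773 and 747 TPM against 651 and 606 TPM, a change of -0.27 ± 0.046 (adjusted p = 0.00745) that missed the threshold without control replicate 1 (adjusted p = 0.0608). Within each library, and so free of scaling, the 2 genes made up 32.6% and 32.7% of all H3 RNA in the controls and 23.8% and 22.1% in the knockouts.

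Of the variant H2A genes H2afz, H2afx, H2afj and H2afy2 rose, and H2afv, H2afy and H2afy3 were not called. H2afz (chr3:137864487-137866922) encodes H2A.Z, found at promoters next to the start site. It went from 326 and 327 TPM to 583 and 564 TPM, a change of 0.81 ± 0.035 (adjusted p = 2.45e-04), and from 4.93% and 4.65% to 6.82% and 6.31% of all H2A RNA. H2afv, which encodes the second H2A.Z protein, was at 88.6 and 95.7 TPM in the controls and 78.4 and 98.0 TPM in the knockouts, with overlapping groups and no call (change -0.07). So the 2 H2A.Z genes had different values, although the difference between them was not tested.

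H2afx (H2A.X, phosphorylated at DNA breaks) rose by 0.37, from 268 and 273 TPM to 361 and 337 TPM. H2afj (H2A.J) rose by 0.56, from 69.0 and 81.3 TPM to 111 TPM in both knockout libraries. Of the macroH2A genes, whose products carry a large extra domain and mark silent chromatin, H2afy was the most abundant variant gene at 706 and 876 TPM against 731 and 914 TPM. Its spread within each group exceeded the difference of 0.06. H2afy2 was at 5.39 and 5.45 TPM against 13.5 and 8.34 TPM, called higher at 0.86 (adjusted p = 0.0354), a call lost without either control library (adjusted p of 0.141 and 0.139) and without knockout replicate 1 (0.108). H2afy3 did not exceed 2.01 TPM and was not called.

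The 2 variant H1 genes were low. H1f0 (H1.0, the linker histone of cells that leave the cycle) was at 65.2 and 74.1 TPM in the controls and 52.0 and 55.4 TPM in the knockouts, a change of -0.37 (adjusted p = 0.0193). It made up 0.864% and 0.915% of H1 RNA in the controls and 0.586% and 0.612% in the knockouts, and its call was lost without control replicate 2 (adjusted p = 0.081), knockout replicate 1 (0.0887) or knockout replicate 2 (0.0506). H1fx was at 3.08, 6.33, 8.87 and 9.54 TPM, a change of 0.90 that did not pass (adjusted p = 0.060) except without control replicate 2 (0.0239) and in the fit with a replicate block. Cenpa, the centromeric H3, whose name is outside the rule, rose by 0.28, from 61.4 and 63.5 TPM to 74.7 and 77.4 TPM, but was not called with median-ratio scaling (adjusted p = 0.0665), with quantile normalization (0.0514), without control replicate 1 (0.0677) or without knockout replicate 2 (0.0623).

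**Figure D4:**
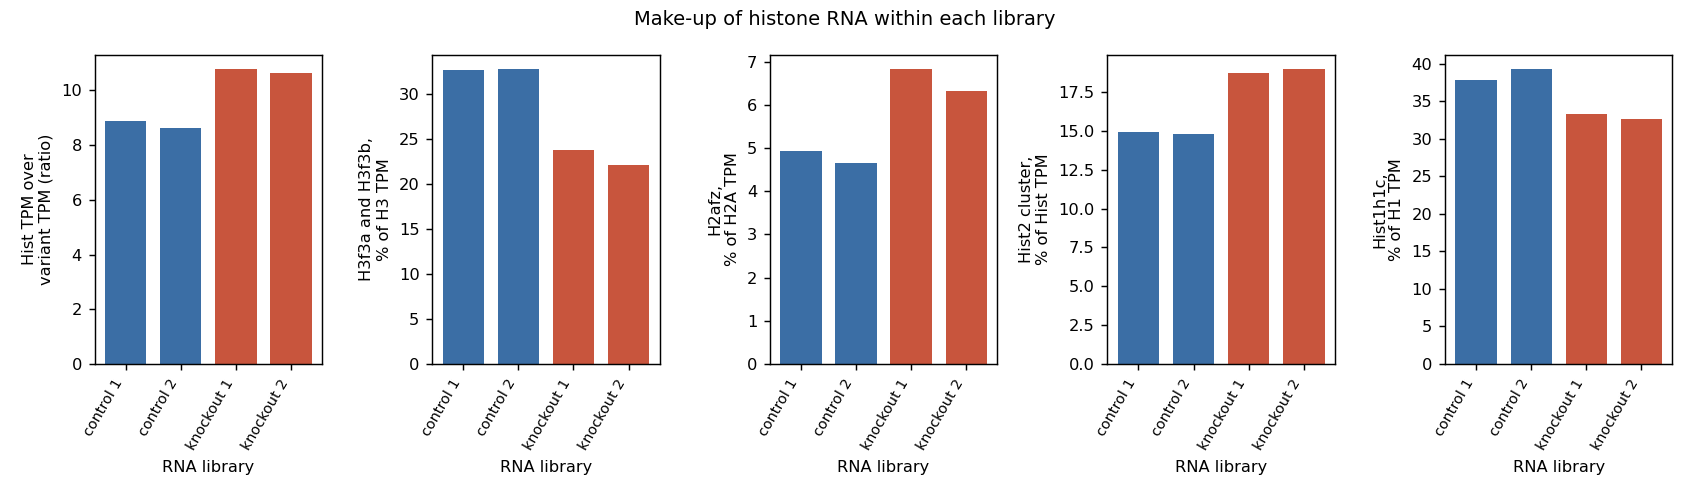
Ratio of Hist to variant RNA and 4 shares of histone RNA, each computed within a library, for the 2 control and 2 knockout RNA libraries; bars start at 0. In each panel the libraries of a genotype lie closer to each other than to the other genotype, with H3f3a and H3f3b at 32.6% and 32.7% of H3 TPM against 23.8% and 22.1%.

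By position, the clusters differed in level. On the deposited scale Hist1 and Hist2 had similar shares of called rises, and differences in calls between clusters were not tested. Hist1, on chromosome 13, holds 52 of the 66 genes, of which 29 rose and 1 fell on the deposited scale, against 25.2% and 14.7% of all genes. With median-ratio scaling 15 rose and 3 fell there (all genes 18.2% and 19.1%), and 18 and 2 with quantile normalization or without tail-less RNAs. On the deposited scale its block from 23531044 to 23764412 held 29 genes and 17295 to 20304 TPM in a library, with 17 rises and no falls. The block from 21715713 to 21812150 had 9 rises and 1 fall among 18 genes, and the block from 22035122 to 22043658 had 3 rises among 5. In Hist2, on chromosome 3, 5 of 10 genes rose (4 with quantile normalization, 5 under the other scalings), and its share of all Hist RNA went from 14.9% and 14.8% to 18.7% and 19.0%. Its summed level was 3977 and 4096 TPM in the controls and 6265 and 6431 TPM in the knockouts, mostly from Hist2h2bb and Hist2h2ac. Hist3, with 3 genes on chromosome 11, went from 1.71% and 1.55% of Hist RNA to 1.19% and 1.08%: Hist3h2ba fell, and Hist3h2a had a change of -0.18 (adjusted p = 0.059), called lower with median-ratio scaling (-0.29, adjusted p = 0.0121), with quantile normalization (-0.31, 0.0161), without tail-less RNAs (-0.25, 0.0228), on FPKM (0.0327), with a replicate block (0.0277) and without knockout replicate 1 (0.0391). Hist4h4, alone on chromosome 6, rose by 0.45, from 386 and 371 TPM to 514 and 524 TPM. These shares do not depend on the scaling between libraries, and no library of a genotype overlapped the other.

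Genes that face each other across a short stretch of DNA did not always share a call, and differences between partners were not tested. In 10 pairs, all of an H2A and an H2B gene, the starts were 173 to 281 bases apart on opposite strands. Both genes rose in 2 pairs, neither was called in 5, and 1 of the pair was called in 3. Among all genes 25.2% were called higher and 14.7% lower. A pair with 1 call can still share a direction. Hist1h2bk rose by 0.54, while Hist1h2ah, at a mean of 16.4 TPM, had a change of 0.70 that was not called. Hist1h2bj and Hist1h2ag rose by 0.65 and 0.33, with 281 bases between their starts, and the call of Hist1h2ag was lost without either control library (adjusted p of 0.138 and 0.0916) and with median-ratio scaling (0.0972). Hist2h2ac rose by 0.84, while Hist2h2be, whose start is 192 bases away within the window printed above, was at 5.68 and 6.24 TPM against 4.62 and 3.37 TPM (change -0.49, not called). The levels of that pair also differ widely, with means over the 4 libraries of 1497 and 4.98 TPM. The sources used here do not say whether reads were assigned by strand, which bears on pairs whose models lie close to each other.

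Some Hist IDs cannot be read as single genes. Hist1h2ao was at 44.0, 1.01, 51.3 and 0.792 TPM, a pattern that follows neither genotype, and it overlaps Hist1h2ap at 154, 157, 60.8 and 241 TPM. Together they came to 198, 158, 112 and 241 TPM, with no call. Hist1h4m was at 0, 11.5, 0 and 0 TPM beside Hist1h4n at 291 to 450 TPM, and the sum of the 2 rose by 0.46 (adjusted p = 0.00899). Hist2h2aa1 and Hist2h2aa2, and Hist2h3c1 and Hist2h3c2, also share positions; summed, the first pair was not called (adjusted p = 0.0704) and the second rose by 0.38 (adjusted p = 0.0405). With these 5 pairs each counted once, 36 of 61 Hist genes rose and 1 fell. Of all 13223 genes in that fit, 3343 were called higher and 1943 lower.

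Long models are a further limit. Of the 66 Hist genes, 6 had a model over 1000 bases, and 1 of the 6 rose against 34 of the 60 shorter models. The median level was 20.9 TPM for the long models and 283 TPM for the shorter ones, so length and level were not separated. Hist1h2be, whose model spans 37455 bases, was at 80.5 and 73.0 TPM in the controls and 334 and 82.5 TPM in the knockouts. Knockout replicate 1 stood apart there, so the change of 1.11 did not pass (adjusted p = 0.204). The level of a gene also went with its call: 31 of the 44 Hist genes with a mean of 100 TPM or more rose and none fell, against 4 rises and 2 falls among the 22 below it. All genes were not split at that level, so whether the split is particular to Hist genes was not tested. With a minimum mean of 5 TPM, 3153 of 10314 genes were called higher, against 3331 of 13228 at 1 TPM. The 25.2% of all genes called higher is likewise not matched to the Hist genes for level.

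The other genes of the pathway were read from lists that were written with earlier results of these data known. Of 22 genes for histone RNA processing and transcription, 10 rose and 1 fell, with a median of 0.29, against 25.2% and 14.7% of all genes. With median-ratio scaling 7 rose and 1 fell (all genes 18.2% and 19.1%). Slbp, the stem-loop binding protein, went from 92.8 and 109 TPM to 131 and 130 TPM (0.37, adjusted p = 0.0189), but was not called with median-ratio scaling (adjusted p = 0.060), with quantile normalization (0.0836) or without either knockout library (0.0811 and 0.0745). Lsm11, a U7 snRNP protein, rose by 0.60, Mblac1, a nuclease of histone RNA, by 0.75, and Srrt (ARS2) and Ncbp1 of the cap complex by 0.38 and 0.47. The cyclin genes Ccne1 and Ccne2, whose kinase phosphorylates NPAT, rose by 0.64 and 0.97. Hinfp, a factor of H4 promoters, fell by 0.41 on the log2 scale. Npat itself was at 19.5, 18.5, 18.4 and 21.3 TPM and was not called. The call of Lsm11 was lost with median-ratio scaling. The calls of Lsm11, Ccne1 and Hinfp were lost in each fit that left out a library, those of Mblac1 and Ccne2 in 3 and 2 of the 4. Fewer genes of the list, as of all genes, were called higher without knockout replicate 2.

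Of 38 tested genes for histone chaperones and their partners, 17 rose and 2 fell, with a median of 0.22, against 25.2% and 14.7% of all genes. With median-ratio scaling 14 rose, where all genes gave 18.2% higher and 19.1% lower. The rises included both large subunits of the CAF-1 complex, which deposits H3 and H4 behind the replication fork: Chaf1a by 0.66 and Chaf1b by 0.62. Nasp, which holds H3 and H4 in a soluble pool, rose by 0.54, Hat1, which acetylates new H4, by 0.59, and Ipo4, an importin for H3 and H4, by 0.62. Mcm2, a helicase subunit that also binds H3 and H4, rose by 0.79, Rbbp7 by 0.64 and Set by 0.78. Of the HIRA pathway for H3.3, Hira was at 32.8 and 35.6 TPM against 38.5 and 39.4 TPM and was not called. Ubn1 and Ubn2, partners of HIRA that were singled out after their values were seen, fell by 0.28 and 0.37 on the log2 scale; leaving out a library ended the call of Ubn1 in 3 of 4 fits and of Ubn2 in each. Daxx and Atrx were not called. The falls in this list numbered 5 with median-ratio scaling and 0 in 3 of the 4 fits that left out a library.

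All 25 genes of the S phase list rose, with a median of 0.61, against 25.2% of all genes. With median-ratio scaling 23 of 25 rose (all genes 18.2%). Gins1 and Gins2, of the replicative helicase, rose by 1.10 and 1.09, and Tyms, of nucleotide synthesis, by 0.82. The summed level of the list was 2511 and 2506 TPM in the controls and 3658 and 3650 TPM in the knockouts. The median of the Hist genes, at 0.30, lay between that of this list and that of all genes, at 0.09.

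RNAs without a poly(A) tail other than the Hist mRNAs had the opposite sign. Of 9 tested, none rose and 6 were called lower, with a median of -0.50, against 25.2% and 14.7% of all genes. The 6 were Rpph1 (-0.31), Rmrp (-0.14), Rnu12 (-0.50), Scarna2 (-0.69), Malat1 (-0.39) and Neat1 (-0.51). Neat1 also has a short form with a poly(A) tail, and its gene value does not separate the forms. Terc, Rnu11 and Snord118 were not called. The count was 3 without control replicate 2, and Rpph1 missed the threshold without either control library (adjusted p of 0.069 and 0.0716), Rnu12 without either control library or knockout replicate 1, and Rmrp in each such fit. The sources used here do not say whether the RNA was selected by its tail or freed of ribosomal RNA. The part of the yield of tail-less RNA in the Hist values was not tested.

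**Figure D5:**
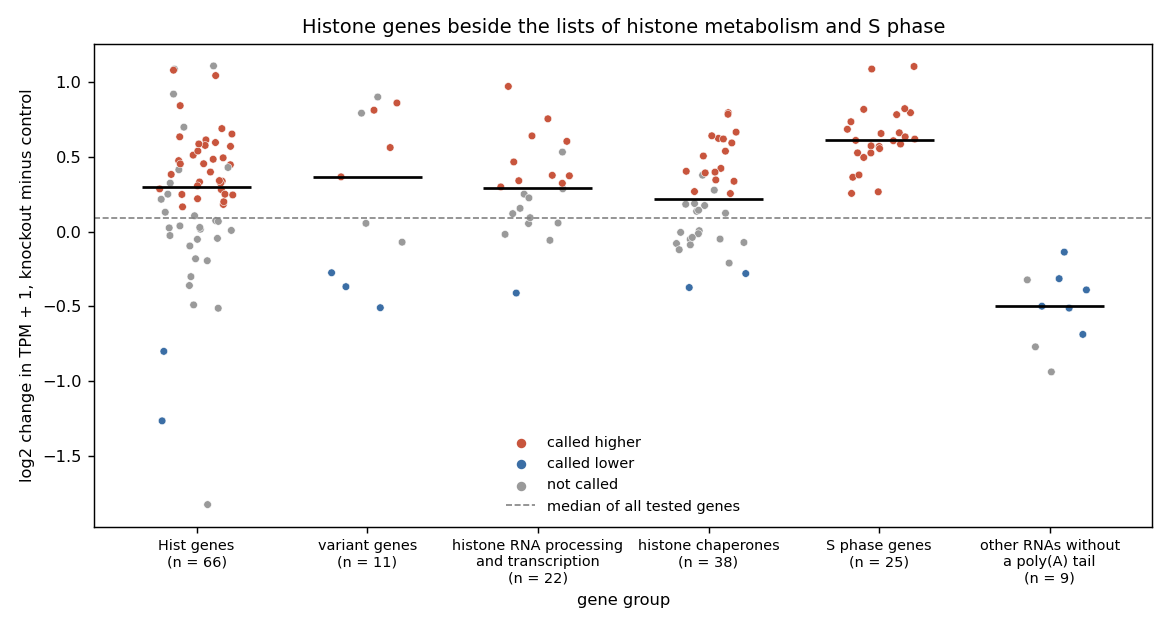
Log2 change in TPM + 1 (knockout minus control) of each tested gene in 6 groups; colour gives the call, black lines the group medians, the dashed line the median of all tested genes. The S phase genes all lie above 0 with a median of 0.61, the Hist genes around 0.30, and the other RNAs without a poly(A) tail below 0.

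Markers of other cells moved with genotype too, beside 25.2% of all genes called higher and 14.7% lower. Of 14 tested genes of the stromal list 11 rose and none fell, and the list summed to 1081 and 1102 TPM in the controls and 2462 and 2035 TPM in the knockouts, with Dcn at 0 throughout. All 10 T-lineage genes fell, 8 of 10 mast cell and basophil genes rose and 2 fell, and 6 of 8 neutrophil progenitor genes rose and none fell. Their part in the histone values was not tested.

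In ATAC-seq, which marks open chromatin, most histone starts were under a peak in every library. A peak lay within 500 bases of the start in each of the 4 lists for 59 of 66 Hist genes (89.4%) and 9 of 11 variant genes (81.8%), against 85.2% of all 13228 genes. The starts of Hist1h4b, Hist1h3g, Hist2h2ac and H3f3b were under peaks in all 4 lists. At Hist1h4b the authors' fold over background was 13.9 and 13.2 in the control lists and 13.8 and 13.5 in the knockout lists, and at H3f3b 10.7, 10.5, 10.1 and 10.1. At H2afz it was 13.1, 13.4, 12.4 and 10.8. Peak lists were called separately, so these values describe each list and were not compared.

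The histone genes that lacked such a peak in some list were few. Hist1h1t and H2afy3, both near the level rule, had none in any list. Hist1h2ao, Hist1h2ap, Hist1h2bq and Hist1h2br, which share 1 duplicated locus, had none either. How reads that map to several copies were treated is not stated in the sources used here. Hist1h4k and H1fx had a peak in the knockout lists only, with −log10 q of 12.5 and 11.6 for Hist1h4k and 8.74 and 4.58 for H1fx. The lowest −log10 q in a list was between 2.74 and 2.87, so the H1fx peaks were near the floor of the lists, and no test of the difference was possible from peak lists. Hist1h4m lacked a peak only in the list of knockout replicate 2.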

How the data were processed

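RNA reads were aligned with HISAT2 and abundances estimated with StringTie on mm10, and ATAC reads aligned with Bowtie2 with peaks from MACS2, per the submitters' processing notes. Versions are not among them. The deposited TPM column, which the authors scaled to 1000000 per library, was used as it stands. The deposited FPKM column and the coverage signal of the authors' tables served as an alternative and as a guide to depth. The authors' peak lists give a fold over background and −log10 p and −log10 q values per library.

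Entries of a gene ID were summed. limma 3.58.1 (lmFit, eBayes with trend) in R 4.3.3 was fitted to log2(TPM + 1) over 13228 gene IDs with a mean of at least 1 TPM, genotype as the only term, with Benjamini-Hochberg adjustment over all of them and a threshold of 0.05. The code was tested on simulated data. Tables were built in Python 3.11.15. A peak counted for a start when any base of it lay within 500 bases.

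The members, gene lists and tests were chosen with earlier results of these data known. Named were all variant genes, the 2 most abundant Hist genes of each type, the 5 largest called rises and falls, calls against their type, the 8 largest called changes in each of the first 2 lists and 4 in the S phase list, and the measured tail-less RNAs; others named were chosen after their values were seen. One gene that the rule names in the S phase list is not reported here. Alternatives covered pseudocount, filter, scaling, FPKM, summing of entries, a replicate block and each library left out, and the merging of overlapping copies was added after the data were seen. The long models and the pairs of facing genes were likewise described after the values were seen. Deviations of same-numbered libraries from their group means correlated at 0.0043 over 13228 genes and at 0.556 over the 77 histone genes. With 2 libraries a group, and no label that ties a number to a shared source, the numbers were not taken as pairs.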

Additional observations from a re-analysis of the deposited data

How the results depend on the processing

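Over 68 named genes, 991 values under alternatives were computed: 880 kept their direction and side of the threshold, 83 lost the call, 17 gained one and 11 changed sign. Of the 66 Hist genes, 35 were called higher; median-ratio scaling gave 21 and quantile normalization 23, and leaving out a library gave 21 to 30. Called lower were 2 Hist genes; the count was 1 with a pseudocount of 0.1, a minimum mean of 5 TPM, no filter on low values or merged copies, 5 with median-ratio scaling, 4 with quantile normalization or rescaling without tail-less RNAs, and 1 to 3 with a library left out. With a replicate block, 35 Hist genes were called higher and 3 lower, and 5 variant genes higher and 3 lower; same-numbered libraries deviated together over the 77 histone genes (correlation 0.556) but not over all genes (0.0043), and the labels give no shared source, so the numbers were not taken as pairs. Variant counts kept within 1.5 times under every alternative, at 3 to 5 higher and 2 to 3 lower. The log2 ratio of summed Hist TPM was 0.31, against 0.20 with median-ratio scaling and 0.24 without tail-less RNAs, and 0.28 to 0.34 with a library left out. For variant TPM it was 0.02, against -0.089 and -0.050 under those scalings, and -0.03 to 0.07 with a library left out. Starts under peaks ranged from 59 to 60 for Hist and 9 to 10 for variant genes over windows of 250 and 1000 bases, a −log10 q of at least 10 and each list left out.

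Changes of sign were confined to genes that were not called in the main analysis. H2afy had -0.052 with median-ratio scaling, -0.022 with quantile normalization, -0.013 without tail-less RNAs, and -0.11 to 0.22 with a library left out. With a library left out, H2afv had -0.23 to 0.089, Hist1h1c -0.10 to 0.052 and Snord118 -1.08 to 0.44. Hist1h1c had 0.020 and Hist1h4c -0.047 with quantile normalization, and Hist1h2af -0.034 with median-ratio scaling. Fits with a library left out rest on 3 libraries, where the lone library is assumed to vary like the others; for other changes the cause was not tested. Read counts were not used here, so counting error per gene is unknown, and genes near 1 TPM rest on low coverage (Hist1h2br: 0.088 per base in its lowest library).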
